A study of Mus musculus with 6 samples.

Results

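The genes of major histocompatibility complex (MHC) class I antigen processing followed here are B2m, Tap1, Tap2, Tapbp, Psmb8, Psmb9, Psmb10, Psme1, Nlrc5 and Erap1, measured in RNA of whole marrow. They were taken by name, through every probe set annotated to exactly 1 of these symbols. All 10 were measured, by 17 of the 45037 probe sets, out of 18193 genes with a probe set of their own. Of 6 SCID/Bg mice, 3 were untreated and 3 received NOX-A12, an aptamer built of mirror-image RNA that binds the chemokine CXCL12, and RNA of each mouse was hybridised to its own Affymetrix Mouse Genome 430 2.0 array. All 6 mice carried the SCID/Bg background, which leaves them without mature T and B lymphocytes and with impaired natural killer cells. The sources used here give no dose, schedule or age. The question put to these genes was whether class I processing, which interferon drives, was lower in treated marrow along with other interferon-inducible genes.

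Class I molecules show fragments of a cell's own proteins at its surface. The proteasome cuts proteins into peptides, and interferon replaces its constitutive catalytic subunits with the inducible subunits encoded by Psmb8, Psmb9 and Psmb10, giving the immunoproteasome. TAP1 and TAP2 together carry the peptides into the endoplasmic reticulum, where tapasin (Tapbp) helps to load them, ERAP1 trims them, and a heavy chain pairs with beta-2-microglobulin (B2m). NLRC5 is the transcriptional activator of several of these genes.

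The promoters of 8 of the 10 genes were matched in RefSeq (GRCm38.p6), each as a window of 300 bases with 250 before the start of the gene; Tap2 and Nlrc5 had no entry. They were searched for the core of the interferon-stimulated response element, which is GAAA, any 2 bases and GAAA again, on either strand, and for the gamma-activated site TTCNNNGAA, whose letters read the same on both strands. The first occurred in B2m, Erap1 and Psme1, which is 3 of 8, and in a window of 3.99% of all 27025 genes with an entry. The second occurred in Psmb8, which is 1 of 8, and in a window of 9.55% of all genes. These stretches are shown with the matching letters in capitals, counting the first transcribed base as 0 for the start of each match: -139 in B2m, -4 in Erap1, 9 in Psme1 and -97 in Psmb8. The B2m stretch runs up to its start at chr2:122147517-122147686 (plus strand). The others are 30-base windows at chr13:74639839-74639868, chr14:55578493-55578522 and chr17:34198088-34198117 (plus strand).
B2m: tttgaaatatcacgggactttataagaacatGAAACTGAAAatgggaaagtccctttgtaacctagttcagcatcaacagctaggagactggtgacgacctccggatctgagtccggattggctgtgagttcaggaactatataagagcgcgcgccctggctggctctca
Erap1: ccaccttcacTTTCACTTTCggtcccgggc
Psme1: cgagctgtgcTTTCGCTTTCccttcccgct
Psmb8: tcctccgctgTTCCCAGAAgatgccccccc

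In the order of genes on chromosome 17, Psmb9, Tap1, Psmb8 and Tap2 lie next to each other among protein-coding genes. Psmb9 and Tap1 point away from each other and share the 225 bases between their starts, at chr17:34187331-34187555, printed here on the plus strand, on which Tap1 is read. This stretch is shown because these were the 2 genes whose brightest probe sets did not overlap between groups. Neither motif was found in the promoter window of either gene.
Tap1 and Psmb9: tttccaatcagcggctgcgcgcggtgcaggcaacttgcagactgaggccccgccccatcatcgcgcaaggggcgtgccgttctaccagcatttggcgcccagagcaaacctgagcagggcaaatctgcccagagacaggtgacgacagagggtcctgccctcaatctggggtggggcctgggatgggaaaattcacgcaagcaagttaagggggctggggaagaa

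Across the arrays, median intensity lay between 44.8 and 45.6. The array of untreated mouse 3 stood apart: 851 of its probe sets differed by over 2-fold from the median of the remaining arrays, and 44 to 67 did so on any other array. Markers of neutrophils and erythroid cells, the main cells of marrow, were bright. Of the T-cell receptor genes, Cd3e was near background, meaning a mean intensity below the offset of 16, while Cd3d was bright, at 1105 to 1513 in untreated and 1650 to 1895 in treated mice. Precision is limited by the number of arrays. Changes are treated minus untreated means of log2(intensity + 16), with standard errors (SE) from the limma fit; because of the offset, a change of a dim probe set is understated. Each gene is given by its brightest probe set unless said otherwise, and levels are not compared between genes.

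Treated means were lower for 8 of the 10 genes and higher for 2. The median of the log2 changes was -0.12, against -0.01 over all genes, of which 52.8% were lower. None passed the test. The lowest limma adjusted p among them was 0.967, and 0 of all probe sets (0%) passed at an adjusted p under 0.05. At an unadjusted limma p under 0.05, 1 of 10 was lower, which was Tap1, beside 3.53% of all genes. The groups did not overlap, with treated mice lower, for 2 of 10, Tap1 and Psmb9, beside 6.68% of all genes. In whole marrow, fewer cells of a type and less RNA per cell cannot be told apart.

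**Figure D1:**
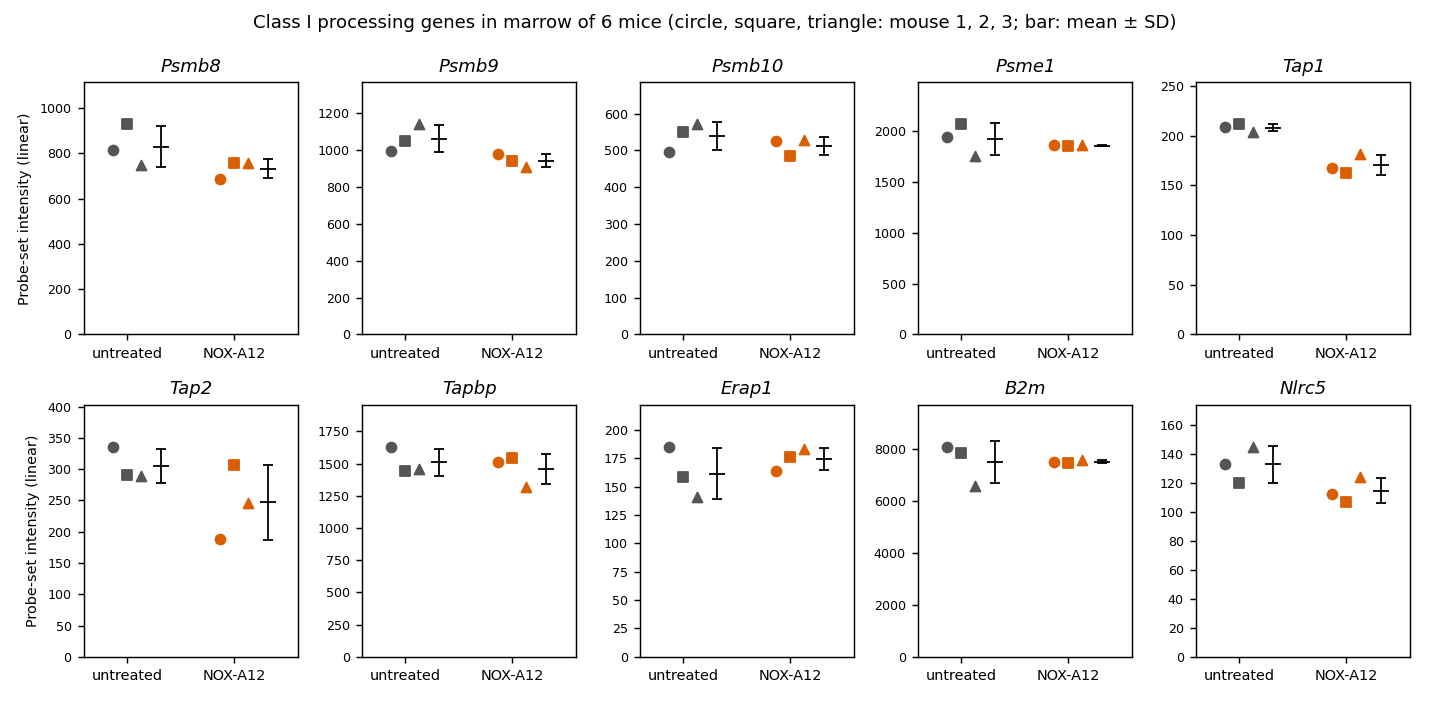
Linear probe-set intensity of the 10 genes, at the brightest probe set of each, in every mouse. Circles, squares and triangles are mice 1, 2 and 3 of a group, and bars are mean ± SD (n = 3). Treated and untreated mice are apart for Tap1 and Psmb9 and overlap for the other 8.

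The transcriptional activator and the inducible proteasome subunits came first in the pathway. Nlrc5 had intensities of 133, 120 and 145 in untreated and of 113, 107 and 124 in treated mice 1, 2 and 3. Only treated mouse 3 reached into the untreated range, and the log2 change was -0.19 ± 0.11 (SE; 95% interval -0.43 to 0.06). Psmb8, which encodes the subunit with chymotrypsin-like activity, had 814, 928 and 747 in untreated and 685, 756 and 756 in treated mice. Treated mice 2 and 3 lay just above untreated mouse 3, and the change was -0.17 ± 0.11 (95% interval -0.43 to 0.09). A dim second probe set of Psmb8 had 26.5, 28.03 and 30.8 in untreated and 16.5, 19.7 and 24.8 in treated mice, with no overlap and a change of -0.29 ± 0.11. Its unadjusted limma p was 0.0325 and its adjusted p 0.967.

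Psmb9, the subunit that stands in for the caspase-like one, had 996, 1051 and 1141 in untreated and 981, 941 and 908 in treated mice. All treated mice were lower, although the highest of them and the lowest untreated mouse were close, and the change was -0.17 ± 0.09 (95% interval -0.39 to 0.06). Psmb10, the third inducible subunit, had 496, 550 and 571 against 526, 484 and 528. The groups overlapped, with a change of -0.07 ± 0.10. Psme1, a subunit of the ring that opens the proteasome, had 1942, 2065 and 1757 against 1863, 1849 and 1859. The treated mice lay inside the untreated range, and the change was -0.05 ± 0.10, or 0.01 without untreated mouse 2.

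Among the 10 genes, the 2 of the peptide transporter gave the changes farthest from 0. Tap1 had 209, 211 and 204 in untreated and 168, 162 and 182 in treated mice. The 3 untreated mice were close together and all treated mice were lower, averaging 171 ± 10.004 (SD, n = 3) against 208 ± 3.74 (SD, n = 3). The log2 change was -0.27 ± 0.09 (95% interval -0.47 to -0.06), a fold of 0.832, with an unadjusted limma p of 0.0193 and an adjusted p of 0.967. The unadjusted limma p was 0.0549 without treated mouse 1 and 0.0715 without treated mouse 2. Tap1 had 3 other, dimmer probe sets, which all gave higher treated means: 0.16 ± 0.19 at a mean of 45.2 in untreated and 52.5 in treated mice, 0.07 ± 0.18 and 0.11 ± 0.15. With all 4 averaged, the change of Tap1 was 0.02 ± 0.12.

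Tap2, the partner of Tap1, had 336, 290 and 289 in untreated and 188, 307 and 246 in treated mice. Treated mouse 1 was far below the rest and treated mouse 2 lay within the untreated range. The change was -0.31 ± 0.17 (95% interval -0.71 to 0.09), but -0.14 without treated mouse 1 and -0.47 without treated mouse 2. So the size of the Tap2 difference rested on which treated mice were counted.

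**Figure D2:**
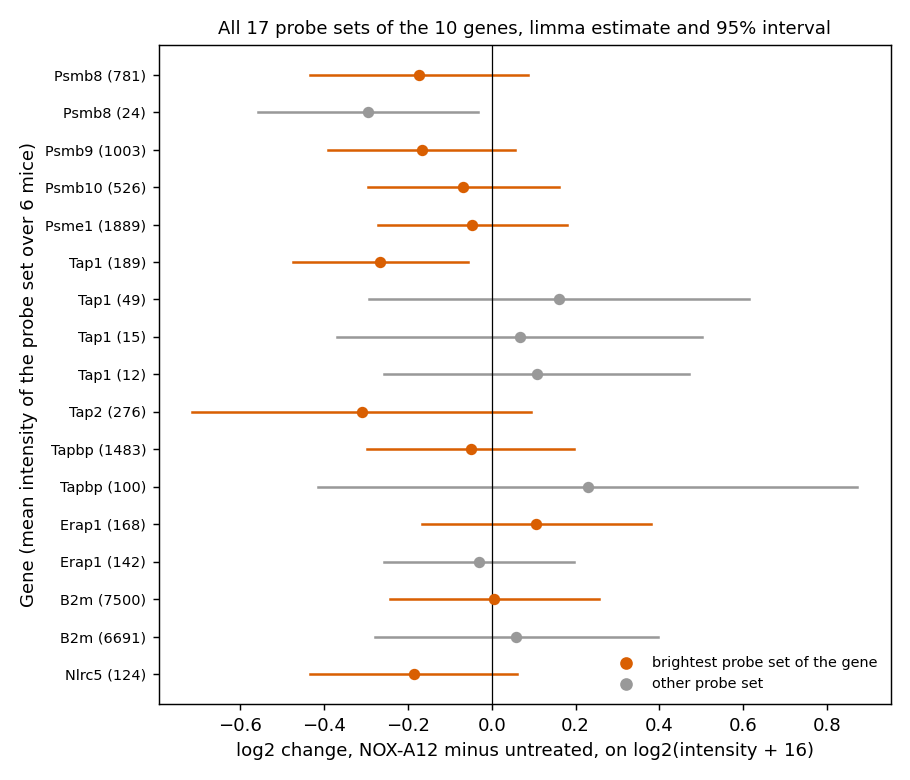
Log2 change (horizontal axis, NOX-A12 minus untreated) of all 17 probe sets with 95% intervals from limma, unadjusted. Labels give the gene and the mean intensity over 6 mice; the brightest probe set of each gene is in orange. The intervals leave out 0 at the brightest Tap1 and the dim Psmb8 probe set, and the dimmer Tap1 probe sets lie on the other side of 0.

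The genes of peptide loading and trimming and the light chain were near 0. Tapbp had 1630, 1441 and 1455 in untreated and 1511, 1542 and 1322 in treated mice. The groups overlapped, with a change of -0.05 ± 0.11, and its dimmer probe set gave 0.23 ± 0.27. The sign at the brighter one turned without untreated mouse 1 (0.01) or treated mouse 3 (0.02). Erap1 had 185, 158 and 141 against 164, 176 and 184. It was higher by 0.11 ± 0.12, within the spread of the mice, and its second probe set gave -0.03 ± 0.10.

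B2m, the light chain of every class I molecule, had 8076, 7834 and 6584 in untreated and 7475, 7458 and 7574 in treated mice. The treated mice fell within the untreated range and close together. The change was 0.01 ± 0.11, and the 95% interval of -0.24 to 0.26 bounds a difference in either direction. Its second probe set gave 0.06 ± 0.14. Untreated mouse 3 was the lowest of the 6 mice at both, and without it the change at the brighter probe set was -0.08. The 3 genes whose promoter windows hold the letters of the response element, B2m, Erap1 and Psme1, thus gave 0.01, 0.11 and -0.05. Psmb8, with the gamma-activated site, gave -0.17. The genes with a window but neither motif were Tap1, Psmb9, Psmb10 and Tapbp, at -0.27, -0.17, -0.07 and -0.05. The stretch shared by Tap1 and Psmb9 was picked by their lack of overlap, so their changes say nothing further about it. A link between promoter letters and change was not tested.

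The classical heavy chains, which bind the peptide beside B2m, were read at H2-K1 and H2-D1. The brightest H2-K1 probe set had 3215, 2831 and 1918 in untreated and 2801, 2989 and 2329 in treated mice. That is a change of 0.05 ± 0.20, with the widest spread among the untreated mice. The brightest H2-D1 probe set had 4034, 3538 and 2322 against 3526, 3651 and 2932. It gave 0.06 ± 0.21. Heavy-chain genes are alike in sequence, and most of these probe sets are of the kind marked as matching several transcripts, so signal from the 2 genes and their relatives cannot be told apart. Over the 6 H2-D1 and 3 H2-K1 probe sets with an untreated mean above 1000, changes ran from -0.03 to 0.09 and from 0.00 to 0.05. Untreated mouse 3 was the lowest of the 6 mice at all of these 9 probe sets.

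Besides these heavy chains, 4 other genes of loading and assembly were measured. Their treated means were higher for 3 and lower for 1, with a median of 0.15, and 0 had an unadjusted limma p under 0.05 (for higher genes, 1.78% of all genes). Calr and Canx, the lectin chaperones that fold class I heavy chains, gave 0.20 ± 0.11 and 0.19 ± 0.13. Pdia3, the disulfide isomerase of the loading complex, gave 0.12 ± 0.16, and the tapasin relative Tapbpl -0.06 ± 0.09. Psme2, the partner of Psme1, had no probe set of its own symbol alone and has no value here.

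Nonclassical and class I-like heavy chains were lower in 9 of 10 measured genes, with a median of -0.17; H2-Q2 and H2-Q10 among the 10 were near background. Of these, 3 did not overlap between groups (6.68% of all genes), and 1 was lower at an unadjusted limma p under 0.05 (3.53% of all genes). The latter was H2-T3, encoding the thymus leukaemia antigen, at 19.7, 16.4 and 24.3 in untreated and 11.96, 10.4 and 14.8 in treated mice, all of them dim. It gave -0.34 ± 0.12. Cd1d1, which presents lipids to natural killer T cells, had 373, 446 and 437 against 367, 320 and 367. It gave -0.24 ± 0.11, with no overlap. Hfe, the class I-like regulator of iron uptake, gave -0.22 ± 0.11 and also did not overlap. H2-Q5 gave -0.80 ± 0.37, with treated mouse 3 inside the untreated range. None passed over all probe sets (limma adjusted p = 0.967).

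The inducible subunits were set against the constitutive ones they replace, as the log2 difference within each mouse. Psmb5, Psmb6 and Psmb7, the constitutive catalytic subunits, gave changes of -0.03 ± 0.08, -0.10 ± 0.10 and 0.16 ± 0.20. Relative to its untreated mean, the log2 difference Psmb8 minus Psmb5 was 0.00, 0.14 and -0.14 in untreated and -0.25, -0.09 and -0.09 in treated mice. The difference of the group means was -0.14, with overlap between the groups (exact permutation p = 0.3, adjusted over 3 pairs 0.45, two-sided). Psmb9 minus Psmb6 differed by -0.07 (exact permutation p = 0.2, adjusted 0.45). Psmb10 minus Psmb7 differed by -0.22 (exact permutation p = 0.7, adjusted 0.7), over untreated values from -0.43 to 0.53. The smallest p that 3 against 3 mice can give is 0.1.

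**Figure D3:**
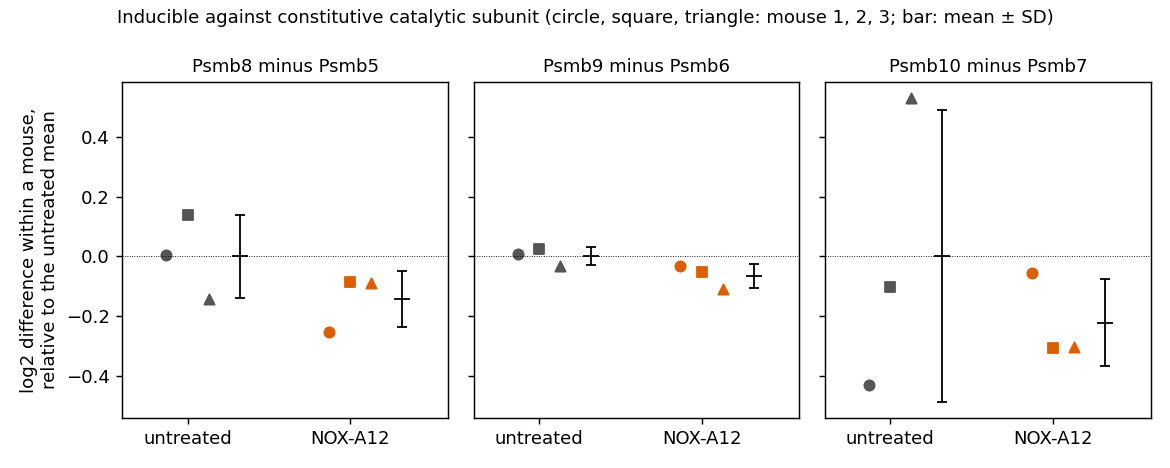
Log2 intensity of the inducible subunit minus that of its constitutive counterpart within each mouse, relative to the untreated mean (vertical axis). Circles, squares and triangles are mice 1, 2 and 3, and bars are mean ± SD (n = 3). Treated means are below 0 in each panel, by 0.14, 0.07 and 0.22 in size, and the groups overlap in all 3.

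The rest of the proteasome was centred near 0. Of 16 further subunits and assembly factors of the core particle, 10 were lower and 6 higher, with a median of -0.03. Psma5 and Psma6, of the outer rings, gave -0.11 ± 0.09 and -0.11 ± 0.10, and the assembly chaperone gene Psmg2 gave 0.21 ± 0.17. Of 19 genes of the regulatory particles, 13 were lower and 6 higher, with a median of -0.05. Among them were the lid subunit gene Psmd8 (0.16 ± 0.10), the base subunit gene Psmd1 (-0.12 ± 0.09) and Psme3, a relative of Psme1 that forms a nuclear activator (-0.16 ± 0.10). Of 7 cytosolic peptidase genes, 5 were lower and 2 higher, with a median of -0.01. The aminopeptidase gene Npepps gave 0.33 ± 0.17, the bleomycin hydrolase gene Blmh -0.35 ± 0.19, and the insulin-degrading enzyme gene Ide 0.06 ± 0.10. In these 3 lists and among the 3 constitutive catalytic subunits, 0 genes had an unadjusted limma p under 0.05.

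On the list of interferon signalling and class I regulators, 17 of 22 genes were on the higher side, with a median of 0.04. Besides receptors, kinases and transcription factors, it holds the interferon gene Ifng, the signalling inhibitor Socs1 and the class II activator Ciita. These gave 0.04 ± 0.10, 0.07 ± 0.11 and 0.10 ± 0.11. Over all genes, 8585 of 18193 were higher. Some of the 17 rested on untreated mouse 3, such as Jak1, at 1940, 1872 and 1243 in untreated and 1821, 1752 and 1828 in treated mice. How many did so was not counted. Irf1, an interferon-induced activator of class I genes, had 885, 860 and 842 in untreated and 982, 778 and 809 in treated mice. Its change was -0.02 ± 0.11. Nfya, part of a factor that binds class I and class II promoters, had 492, 469 and 335 against 535, 569 and 550. It was higher by 0.36 ± 0.15, at an unadjusted limma p of 0.0468 (adjusted p 0.967), the 1 gene of the list under 0.05. Nfya was also 1 of 2 genes of the list with all treated mice higher (3.92% of all genes); the other was Creb1, which binds the same promoters, at 0.15 ± 0.09, and the kinase gene Jak2 gave -0.13 ± 0.11.

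On the list of interferon-stimulated genes, 26 of 28 measured members had lower treated means. Their median was -0.26 (log2), against -0.12 for the 10 class I processing genes. At an unadjusted limma p under 0.05, 14 of 28 were lower (3.53% of all genes), and 13 of 28 did not overlap between groups (6.68% of all genes). The 3 with the smallest p were Gbp6, Epsti1 and Gbp2, with Gbp6 at 67.4, 66.4 and 69.0 in untreated and 36.0, 33.0 and 41.0 in treated mice. These gave -0.67 ± 0.09, -0.58 ± 0.10 and -0.43 ± 0.09, and none passed (limma adjusted p = 0.841, 0.926 and 0.926). Both sets of genes were compared in the same mice, and the difference between them was not tested. Tap1 and Tap2, at -0.27 and -0.31, were the class I processing genes with changes below the median of the interferon-stimulated list, and B2m and Erap1 were the ones above 0. Tap1 lay only just below that median and gave 0.02 with its probe sets averaged. Tap2 gave -0.14 without treated mouse 1.

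**Figure D4:**
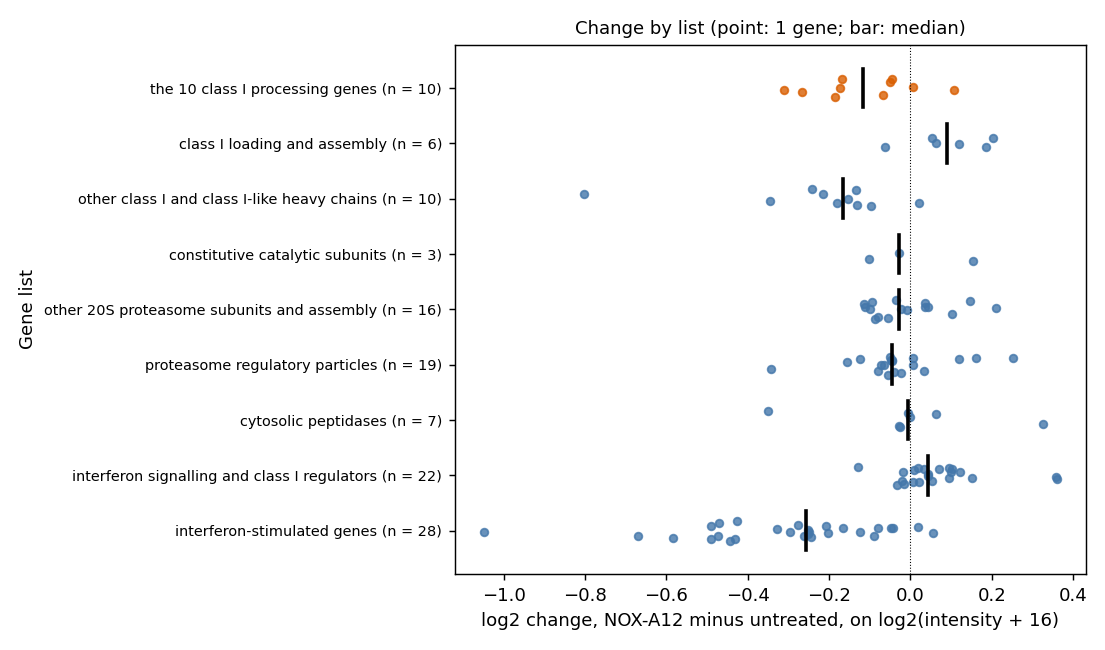
Log2 change (horizontal axis, NOX-A12 minus untreated) of each measured gene at its brightest probe set, by list; black bars are medians. The 10 class I processing genes have a median of -0.12, the interferon-stimulated genes -0.26 and the regulators 0.04.

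Markers of the cell types in marrow were read in the same mice, and none of them passed over all probe sets (lowest limma adjusted p 0.926). Summed marker intensity did not overlap between groups for 3 cell types. It was 3738 to 4632 in untreated and 2638 to 3580 in treated mice for the B lineage, with 7 of 7 measured genes lower, 768 to 904 against 582 to 614 for endothelial markers, with 8 of 8 lower, and 5098 to 6379 against 3746 to 4501 for stromal markers, with 8 of 8 lower. At an unadjusted limma p under 0.05, where 3.53% of all genes were lower, 3 of 7, 5 of 8 and 7 of 8 of these were lower. Most of the stromal sum came from Cxcl12, at 3608 to 4098 in untreated and 2580 to 3131 in treated mice. It encodes the chemokine that NOX-A12 binds. The sums overlapped for the other types. Dendritic markers summed to 984 to 1193 against 920 to 991, with 6 of 8 lower, 2 of them at an unadjusted limma p under 0.05. The near-background Xcr1 was higher by 0.24 ± 0.10, with no overlap, at an unadjusted limma p of 0.0471. Monocyte and macrophage markers summed to 3642 to 5040 against 4204 to 5010, with 5 of 6 lower. Among them the receptors of tissue macrophages Siglec1 and Mertk gave -0.48 ± 0.12 and -0.45 ± 0.13, both with no overlap. Csf1r, Adgre1 and Cx3cr1 were near 0, at -0.03 ± 0.14, -0.04 ± 0.10 and -0.03 ± 0.15. Ccr2 was higher by 0.31 ± 0.31, and the groups overlapped for each of these. T and natural killer markers summed to 3113 to 3627 against 3313 to 3822, with 4 of 7 lower and members on both sides. Klrd1 and Eomes, of natural killer cells, gave -0.52 ± 0.09 and -0.37 ± 0.11, and Cd3d, of the T-cell receptor complex, gave 0.46 ± 0.14, all 3 with no overlap. The groups overlapped for Ncr1 (-0.34 ± 0.23), Nkg7 (0.09 ± 0.12), Cd3g (0.50 ± 0.24) and the near-background Cd3e (-0.09 ± 0.23). Sums for neutrophil markers were 71986 to 77261 against 74511 to 76883, with 3 of 8 lower, and for erythroid markers 27801 to 33578 against 30314 to 32426, with 0 of 6 lower. For skeletal muscle markers they were 335 to 371 against 332 to 383, with 3 of 8 lower, and Acta1 and Tnnt3 near background. The muscle marker Ckm was higher by 0.38 ± 0.14, with no overlap, at an unadjusted limma p of 0.0262. The part of all these cell types in the values of the class I processing genes was not tested.

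Over the 10 genes, the median log2 value relative to the untreated mean was 0.01, 0.00 and -0.06 in untreated and -0.08, -0.09 and -0.10 in treated mice 1, 2 and 3. The highest of the 6 mice was an untreated one for all 10 genes: mouse 1 for 4, mouse 2 for 3 and mouse 3 for 3. These include Erap1 and B2m, whose treated means were higher, by 0.11 and 0.01. The lowest was untreated mouse 3 for 3 genes and a treated mouse for 7. Shares over all genes with an untreated mouse highest or a treated mouse lowest were not computed, so these counts are a description only. Untreated mice had the larger spread for 63.5% of all genes, and the part of this in the counts was not tested. Among 10556 other named genes above the median level, those whose 6 values followed the mean of the 10 genes most closely were Vps41, Spryd4, Klhl18, Trim21 and Snn. Their Pearson r over 6 mice was 0.981 to 0.987, with Spearman's rho from 0.943 to 1, and r from 0.936 to 0.997 without the 2 mice farthest from the median. These genes were picked by this r among many over few mice, so it is a description, with no test. Their own log2 changes ran from -0.52 ± 0.16 for Snn to -0.08 ± 0.08 for Klhl18.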

How the data were processed

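The authors' deposited table held linear probe-set intensity values from whole marrow RNA of 6 mice, 1 array each; the sources used here do not name its software or normalization. Array medians on the log2 scale lay within 0.0193, so the deposited intensities were used as given, as log2(intensity + 16). Gene names came from the annotation of the platform (34945 with 1 symbol, 932 with several, 9160 with none). The labels number separate mice, so groups follow the titles. All 45037 probe sets entered 1 two-sided fit without covariates (lmFit and eBayes of limma 3.58.1, R 4.3.3), with Benjamini-Hochberg adjustment over all of them and a threshold of 0.05. The script was tested on simulated data. The 10 genes and the gene lists were chosen with earlier results of these data known. Named genes were the 10, some fixed partners, and the 3 genes of smallest p in each pathway list. Hfe, Tapbpl and the cell type markers given singly were named beyond that rule, with their values seen. Promoters came from RefSeq. Alternatives covered normalization, offset, dim and cross-hybridising probe sets, variance model, array weights, mouse number as a block, averaged probe sets and each mouse left out.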

Additional observations from a re-analysis of the deposited data

How the results depend on the processing

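In every alternative run, 0 probe sets and 0 of the 10 genes passed (lowest limma adjusted p 0.0631 over all probe sets and 0.624 among the 10, both without untreated mouse 1). The median of the 10 genes stayed below 0 in all 16 alternatives, from -0.15 to -0.09 with a mouse left out, and was -0.057 with all probe sets of a gene averaged. The count lower at an unadjusted limma p under 0.05 was 2 with an offset of 64, where Psmb9 joined Tap1, and 0 to 1 with a mouse left out (0 without treated mouse 1). In the remaining cases it was 1: Tap2 without treated mouse 2, Psmb8 with averaged probe sets, and Tap1 in the others. Psmb8, Psmb9, Psmb10, Tap2, Nlrc5 and Erap1 kept their sign in all 16. Tap1 turned to 0.017 and Tapbp to 0.0897 with averaged probe sets. B2m turned to -0.011 after quantile normalization and to -0.036 with array weights. With a mouse left out, B2m ran from -0.084 to 0.063, Tapbp from -0.091 to 0.019 and Psme1 from -0.11 to 0.0075. With the mouse number as a replicate block, the count was also 1, again Tap1, whose limma adjusted p was 0.959. The numbers name different animals, and deviations of same-numbered mice correlated at -0.09 to 0.05. Of the dimmer Tap1 probe sets, 2 averaged below the offset of 16, where precision is limited. Other causes of these moves were not tested.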

Other observations

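The spread among untreated mice was larger than among treated mice for 7 of the 10 class I processing genes, which is 70% beside 63.5% of all genes. The intensity of Psme1 averaged 1922 with an SD of 155 over the 3 untreated mice, and 1857 with an SD of 7.02 over the 3 treated mice. That of B2m averaged 7498 with an SD of 801, and 7502 with an SD of 63.1. Untreated mouse 3 was the lowest of the 6 mice for 3 of the 10 genes and for 20.9% of all genes.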
